A study of Mus musculus with 4 samples.

Results

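Foxp3, Csf1r, Alas2, Il12rb2 and Tmem176a mark particular blood cell lineages, and each shares exonic bases with a gene on the other DNA strand. The partners are Ccdc22, Hmgxb3, Apex2, Serbp1 and Tmem176b. These 10 genes, out of 50600 in each file, were selected on the marker counts, the overlap length and the partner counts in replicates 1, 3 and 4. Those counts and their ratios are therefore given as descriptions, without a test.

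The data were gene counts of 4 RNA sequencing libraries from T-helper 2 (Th2) cells, taken as primary cells from C57BL/6NJ mice. All 4 formed a single group of biological replicates, with no control, treatment or genotype to set it against. The labels name a protocol for the differentiation of CD4 T cells, record that sex was not collected, and give the age as unknown. They call the assay total RNA sequencing, whereas the title of the library protocol speaks of poly(A) RNA. Each replicate has its own biosample but the same donor in the labels, so the p-values may measure only technical spread.

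Genes on opposite strands can share bases, most often where convergent genes run past each other at their 3′ ends or where divergent genes start close together. A stranded library keeps the orientation of each fragment, and a counter then assigns a fragment in a shared stretch to the gene whose strand it matches. A marker's count is thus a count of fragments of one orientation within its exons, and it need not come from that gene's RNA. The sources used here do not say which strand of the RNA read 1 copied, so whether a marker's counts run in the direction of its own RNA or of its partner's was not measured. Foxp3 is the transcription factor that defines regulatory T (Treg) cells. Csf1r is the receptor for macrophage colony-stimulating factor. Alas2 is the erythroid enzyme of the first step of heme synthesis, Il12rb2 is the signalling chain of the interleukin 12 receptor on T-helper 1 (Th1) cells, and Tmem176a is a membrane protein found in dendritic cells and in type 3 lymphocytes. Ccdc22 belongs to the COMMD-CCDC22-CCDC93 complex of endosomal recycling, Apex2 is a DNA repair endonuclease, Serbp1 binds RNA and ribosomes, Hmgxb3 carries an HMG-box domain, and Tmem176b is the sister gene of Tmem176a.

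Replicates 1, 3 and 4 had 2388255, 1929880 and 1713199 gene counts. Replicate 2 had 5016, of which 5 fell on the 10 genes, and is shown as counts only. The 3-count floor of detection was 1.26, 1.55 and 1.75 CPM (a gene's counts scaled to the library total) in replicates 1, 3 and 4 and 598 CPM in replicate 2. Genes with exons opposite another gene's exons made up 16.2% of all genes and held 90.7%, 94.2% and 91.3% of the counts in replicates 1, 3 and 4. Levels are given as TPM, a gene's counts per exonic base scaled to the sum over all genes of the library. In bulk RNA, fewer cells of a type and less RNA per cell cannot be told apart.

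Marker genes were set beside the labelled cell type as a description, since the limit on the orientation of the counts holds for them too. All 8 T cell markers reached a mean of 1 TPM on their annotated strand, against 31.1% of nuclear protein-coding genes. Their median was 12.9 TPM, and that of the 7 without opposite-strand exons was 13.8 TPM. Cd3e, a chain of the T cell receptor complex, is the 1 with such exons. It had the lowest mean of the 8, 3.70 TPM, with 28, 0, 9 and 26 counts in replicates 1 to 4. Of 8 Th2 markers, 7 reached 1 TPM, and the list median was 11.0 TPM. Among these 7 were all 3 with opposite-strand exons and 4 of the 5 without. Il13, a type 2 cytokine, had 194, 0, 31 and 117 counts, and Il4, the cytokine that drives Th2 differentiation, had 65, 0, 80 and 59.

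In 4 of the 5 pairs the shared bases lie at the 3′ end of the marker. Foxp3 lies on the plus strand of chromosome X at 7579676 to 7595243 (mm10) and has 3989 exonic bases. Its partner Ccdc22 lies on the minus strand at 7593809 to 7605517 with 3427 exonic bases. Their exons share 590 bp in 4 stretches, 14.8% of Foxp3 and 17.2% of Ccdc22. None of these bases is coding in Foxp3, while 345 are coding in Ccdc22. In the GENCODE vM21 annotation 4 of 10 Foxp3 transcripts and both Ccdc22 transcripts have exon bases there. Csf1r lies on the plus strand of chromosome 18 at 61105572 to 61132149, and its last 871 bp, 17.8% of its 4885 exonic bases, lie opposite the end of Hmgxb3 at 61131279 to 61177050. None of these bases is coding in Csf1r and 10 are coding in Hmgxb3. The stretch is held by 1 of 6 Csf1r transcripts and 4 of 9 Hmgxb3 transcripts.

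Alas2 lies on the plus strand of chromosome X at 150547375 to 150570638. It shares 311 bp, 12.9% of its 2403 exonic bases, with Apex2, whose annotated exons run from 150519519 to 150589868 on the minus strand and thus span the whole of Alas2. Of the 311 bp, 164 are coding in Alas2 and none in Apex2. They are part of 3 of 4 Alas2 transcripts and of 1 of 10 Apex2 transcripts. Alas2 has a further 61 bp opposite the microRNA gene Mir3620, which had no count, and Apex2 has 123 bp opposite Pfkfb1, which had 7, 0, 0 and 3 counts in replicates 1 to 4. Il12rb2 lies on the minus strand of chromosome 6 at 67291318 to 67376188. It has the widest overlap of the 5, with 1519 bp or 40.04% of its 3794 exonic bases opposite Serbp1, and 634 of these bases are coding in Il12rb2. Serbp1, on the plus strand at 67238176 to 67297736, has 20117 exonic bases, so the same stretch is 7.55% of it. Both Il12rb2 transcripts hold the stretch, but only 1 of 16 annotated Serbp1 transcripts, with an extended last exon, reaches it.

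Tmem176a and Tmem176b are divergent and overlap at their 5′ ends. Tmem176a lies on the plus strand of chromosome 6 at 48840919 to 48847071 and Tmem176b on the minus strand at 48833818 to 48841496. Their exons share 81 bp, 2.13% of Tmem176a and 3.42% of Tmem176b, none of it coding, and 1 of 7 Tmem176a transcripts and 5 of 12 Tmem176b transcripts have exon bases there. RefSeq places a start of Tmem176a 109 bp from the nearest start of Tmem176b, without overlap, and the bases between these starts are shown because this is the only pair joined at its 5′ ends. The sequence is the plus strand of chr6:48841374-48841483 (RefSeq, GRCm38.p6). The capital at its left end is the Tmem176b start and the capital at its right end is the Tmem176a start.
Tmem176b to Tmem176a: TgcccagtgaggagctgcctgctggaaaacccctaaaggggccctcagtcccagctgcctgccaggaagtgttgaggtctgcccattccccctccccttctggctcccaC

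**Figure D1:**
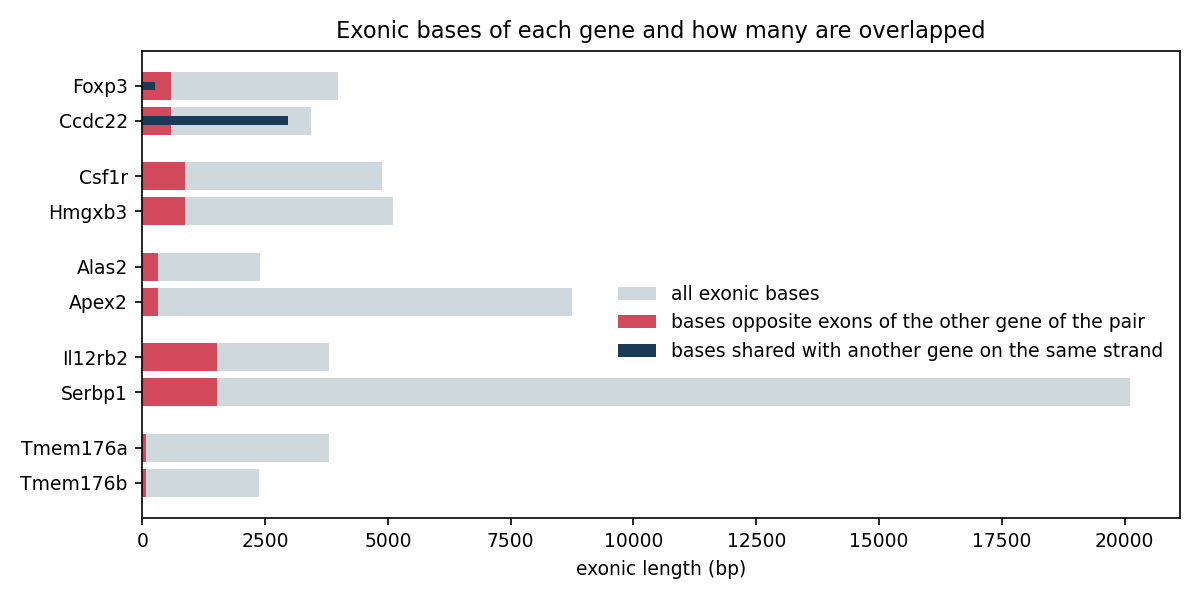
Exonic bases of the 10 genes, in bp from 0 on the horizontal axis, with each marker above its partner. Grey is the whole exonic length, red the part opposite the partner's exons (81 to 1519 bp) and dark blue the part shared with another gene on the same strand, which reaches 2957 bp in Ccdc22.

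Foxp3 stood far above Ccdc22 in each deep library. Foxp3 had 605, 496 and 435 counts in replicates 1, 3 and 4, or 90.8, 90.8 and 92.0 TPM, and 1 count in replicate 2. Ccdc22 had 3, 5 and 5 counts, or 0.524, 1.06 and 1.23 TPM, and none in replicate 2. The lowest Foxp3 value was thus well above the highest Ccdc22 value. The means were 91.2 ± 0.698 TPM for Foxp3 and 0.940 ± 0.370 TPM for Ccdc22 (SD, n = 3 each). Foxp3 took 99.5%, 99.0% and 98.9% of the counts of the pair. Pooled over the 3 libraries, its counts per exonic base were 101.5 times those of Ccdc22, with an exact 95% interval for the counting error of 59.2 to 191.

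The low Ccdc22 count has a limit of annotation. Of its 3427 exonic bases, 2957 are also exons of Gm36995 on the same strand, which had no count in any library, and by the counter's default a fragment that touches both genes is given to neither. That left 470 bp in which a Ccdc22 fragment could be counted. Over these 470 bp Ccdc22 had 27.7 pooled counts per kb, against 3.79 over its whole exonic length. Over unshared bases the Foxp3 density was 14.9 times that of Ccdc22 (8.70 to 28.1), a comparison added after the data were seen. Foxp3 itself shares 267 bp with Flicr, a long noncoding RNA gene on its own strand that had 35, 0, 29 and 18 counts in replicates 1 to 4.

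Csf1r also stood far above its partner Hmgxb3, which shares no exonic bases with another gene of the same strand. Csf1r had 1091, 910 and 878 counts in replicates 1, 3 and 4, or 134, 136 and 152 TPM, with 2 counts in replicate 2. Hmgxb3 had 16, 6 and 9 counts, or 1.88, 0.858 and 1.49 TPM, and none in replicate 2. The values of both genes did not overlap in any library. The means were 140.4 ± 9.75 TPM for Csf1r and 1.41 ± 0.514 TPM for Hmgxb3 (SD, n = 3 each). The pooled density ratio was 97.0 (68.2 to 143), and Csf1r took 98.6%, 99.3% and 99.0% of the counts of the pair.

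Il12rb2 had the reverse order. Il12rb2 had 41, 25 and 30 counts in replicates 1, 3 and 4, or 6.47, 4.81 and 6.67 TPM. Serbp1 had 5095, 5044 and 3638 counts, or 152, 183 and 153 TPM. Every Il12rb2 value was below every Serbp1 value. The means were 5.98 ± 1.02 TPM for Il12rb2 and 162 ± 17.9 TPM for Serbp1 (SD, n = 3 each). Il12rb2 had 0.0369 times the counts per base of Serbp1 (0.0299 to 0.0452) and took 0.798%, 0.493% and 0.818% of the counts of the pair. Of the 5 partners, Serbp1 alone had a high level on its annotated strand. Over whole exonic lengths the other 4 averaged 0.940 to 3.16 TPM. The lowest of these, Ccdc22, had 27.7 pooled counts per kb over the bases where it could be counted. Apex2 had 13.6 and Serbp1 685 per exonic kb. Levels in a single cell type do not show how broadly a gene is expressed.

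Alas2 and Apex2 were closer to each other. Alas2 had 36, 35 and 27 counts in replicates 1, 3 and 4, or 8.97, 10.6 and 9.48 TPM. Apex2 had 53, 40 and 26 counts, or 3.63, 3.34 and 2.51 TPM. Per base Alas2 was higher in each library, while in plain counts Apex2 was higher in replicates 1 and 3. The means were 9.69 ± 0.852 TPM for Alas2 and 3.16 ± 0.582 TPM for Apex2 (SD, n = 3 each). The pooled density ratio was 3.00 (2.27 to 3.95). Without the correction for length it turned, to a log2 ratio of −0.28, because the annotated exons of Apex2 are 8744 bp long.

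Tmem176a and Tmem176b had few counts and overlapping levels. Tmem176a had 23, 7 and 15 counts in replicates 1, 3 and 4, or 3.61, 1.34 and 3.32 TPM. Tmem176b had 7, 5 and 4 counts, or 1.77, 1.54 and 1.42 TPM. The groups of values overlapped, with Tmem176a above Tmem176b in replicates 1 and 4 and below it in replicate 3. The means were 2.76 ± 1.24 TPM for Tmem176a and 1.58 ± 0.175 TPM for Tmem176b (SD, n = 3 each). The pooled density ratio was 1.75, with an interval for the counting error of 0.970 to 3.32.

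**Figure D2:**
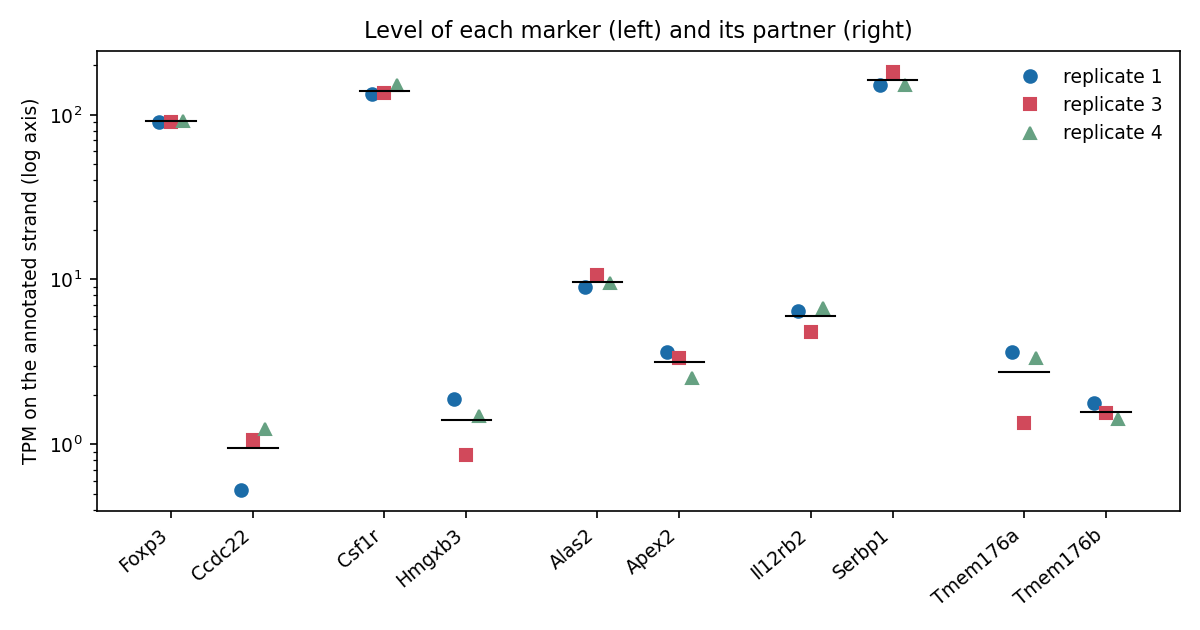
Level in TPM on the annotated strand, on a log axis, of each marker (left) and its partner (right) in replicates 1, 3 and 4, with the mean as a line. Foxp3 and Csf1r stand at 90.8 to 152 TPM over partners at 0.524 to 1.88 TPM (Ccdc22 over its whole exonic length), Serbp1 stands above Il12rb2, and the Tmem176a and Tmem176b points overlap.

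In order of mean level the markers ran from Csf1r through Foxp3, Alas2 and Il12rb2 to Tmem176a. The 3 values of each did not overlap with those of the next, since the lowest Csf1r value (134 TPM) was above the highest of Foxp3 (92.0 TPM), the lowest of Foxp3 (90.8 TPM) above that of Alas2 (10.6 TPM), the lowest of Alas2 (8.97 TPM) above that of Il12rb2 (6.67 TPM), and the lowest of Il12rb2 (4.81 TPM) above that of Tmem176a (3.61 TPM). Among the partners, Serbp1 came first and Apex2 next. Tmem176b, Hmgxb3 and Ccdc22 followed, and their ranges overlapped. The place of Ccdc22 rests on its whole exonic length. Over the bases where it could be counted it had 27.7 pooled counts per kb, above the 13.6 of Apex2.

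The files give a total per gene and no position within it, so how many marker counts lay inside the shared stretch was not measured. Set against the length of the overlap alone, the pooled counts were 2603 per kb for Foxp3, 3305 per kb for Csf1r, 315 per kb for Alas2, 63.2 per kb for Il12rb2 and 556 per kb for Tmem176a. The same counts over the whole marker gave 385 per exonic kb for Foxp3, 589 for Csf1r, 40.8 for Alas2, 25.3 for Il12rb2 and 11.8 for Tmem176a. The partners had 3.79 counts per exonic kb for Ccdc22, 6.08 for Hmgxb3, 13.6 for Apex2, 685 for Serbp1 and 6.75 for Tmem176b. Csf1r and Foxp3 came first on both scales, and Tmem176a moved ahead of Alas2 and Il12rb2 per overlap kb, where its 45 counts were set against 81 bp.

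An unequal split between overlapping genes was common in these libraries. Across the genome, 1714 pairs shared at least 100 bp of exons on opposite strands and had at least 300 counts together in replicates 1, 3 and 4. Their densities differed at least 10-fold in 1288 pairs, or 75.1%, and the median absolute log2 ratio was 5.78. Of 711 pairs of protein-coding genes, 403 or 56.7% differed at least 10-fold, with a median of 3.82. Foxp3 and Ccdc22, at an absolute log2 ratio of 6.67, ranked 682 of 1714 and 114 of the 711 coding pairs, which rests on the whole length of Ccdc22. Over unshared bases the log2 ratio of this pair was 3.90. The medians rest on whole exonic lengths and were not computed over unshared bases, so this value was not placed among them. Csf1r and Hmgxb3, at 6.60, ranked 700 and 120, and Il12rb2 and Serbp1, at 4.76, ranked 1059 and 259. Csf1r with Hmgxb3 was above both medians, and Il12rb2 with Serbp1 was above that of coding pairs and below that of all pairs. Alas2 with Apex2 had 217 counts together, and Tmem176a with Tmem176b had 61, so neither entered this set.

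The rule that chose the genes did not name the spread between libraries, but earlier results of these data were known by then. Foxp3 had 253, 257 and 254 CPM in replicates 1, 3 and 4, a coefficient of variation of 0.778%, below the 4.46% that counting error alone would give. Csf1r had 457, 472 and 512 CPM, a variation of 6.01% against 3.26% from counting. Genes within 1.5-fold of the Foxp3 level had a median variation of 7.90% where they had opposite-strand exons (460 genes) and 27.1% where they had none (31 genes). Around Csf1r these medians were 6.67% over 365 genes and 28.3% over 17 genes. Serbp1 varied by 12.2%, against a median of 4.39% in 64 genes of like level with opposite-strand exons. The 3 less abundant markers varied by 9.84% (Alas2), 16.0% (Il12rb2) and 44.2% (Tmem176a). For Alas2 and Il12rb2 that was below the medians of genes of like level, 24.2% and 24.6% with opposite-strand exons and 39.4% and 39.8% without, whereas the Tmem176a value was above the 34.2% of genes of like level with opposite-strand exons and near the 44.7% of those without.

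Each deep library was tested against the other 2 with edgeR's quasi-likelihood test. These tests compare libraries, not conditions, and take the lone library to vary like the others. In replicate 3 against replicates 1 and 4, 1051 of 6922 genes were called at a Benjamini-Hochberg adjusted p of 0.05, or 15.2%, of which 193 (2.79%) were higher and 858 (12.4%) lower. Genes with opposite-strand exons had a median log2 difference of 0.12 (n = 3862) and genes without a median of −0.82 (n = 3060). Of the called genes, 168 with opposite-strand exons were higher and 186 lower, against 25 higher and 672 lower among those without. DESeq2 called 56 genes, 20 higher and 36 lower.

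Among the 10 genes, 8 reached the filter of a mean count of 10, and Ccdc22 and Tmem176b did not. Serbp1 was the 1 gene called. It had 2614 CPM in replicate 3, against 2133 and 2124 CPM in replicates 1 and 4, a log2 difference of 0.43 (SE 0.10, adjusted p = 7.87e-04, edgeR quasi-likelihood). The replicate 3 value was above both others. The call was lost with DESeq2, at a log2 difference of 0.54, and with replicate 2 added, at 0.80.

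The markers were not called. Foxp3 had 257 CPM in replicate 3, against 253 and 254 CPM in replicates 1 and 4, a log2 difference of 0.15 (SE 0.17, adjusted p = 0.561, edgeR). Csf1r had 472 CPM against 457 and 512 CPM, a log2 difference of 0.10 (SE 0.14, adjusted p = 0.689, edgeR), and without replicate 1 the difference was −0.030. Alas2 had 18.1 CPM in replicate 3, against 15.1 and 15.8 CPM, a log2 difference of 0.37 (SE 0.44). Il12rb2 had 12.95 CPM in replicate 3, against 17.2 and 17.5 CPM, a log2 difference of −0.28 (SE 0.46), and Tmem176a had 3.63 CPM, against 9.63 and 8.76 CPM, a log2 difference of −1.20 (SE 0.66). In replicate 3 the Foxp3, Csf1r and Alas2 differences were thus positive and those of Il12rb2 and Tmem176a negative, and none passed the test. Of the other partners, Apex2 had a log2 difference of 0.27 (SE 0.40) and Hmgxb3 of −0.81 (SE 0.74).

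These differences can be placed among all tested genes as a description. The Foxp3 difference was above that of 55.2% of genes with opposite-strand exons and 85.3% of genes without. For Csf1r the shares were 46.6% and 83.0%, and for Serbp1 85.8% and 92.7%. The Tmem176a difference was above that of 6.86% of genes with opposite-strand exons and 32.5% of genes without. Scaling mattered here: with factors taken from genes without opposite-strand exons the median of all genes moved to 0.59, against −0.11 with factors from all genes, and 2496 genes were higher and 176 lower. On that scale the differences were 0.86 for Foxp3, 0.80 for Csf1r, 1.07 for Alas2 and 1.13 for Serbp1, and Il12rb2 turned to 0.42. The median over all genes with opposite-strand exons, the class of every tested member, was 0.82 there (n = 3862). Whether Foxp3, Csf1r and Alas2 were called thus depended on the scaling, which moved their whole class. Relative to the median of all genes, the differences were 0.27 for Foxp3, 0.21 for Csf1r, 0.49 for Alas2 and −0.17 for Il12rb2 on both scales. A change of factors moves all genes by nearly the same amount, so this match was set by construction.

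**Figure D3:**
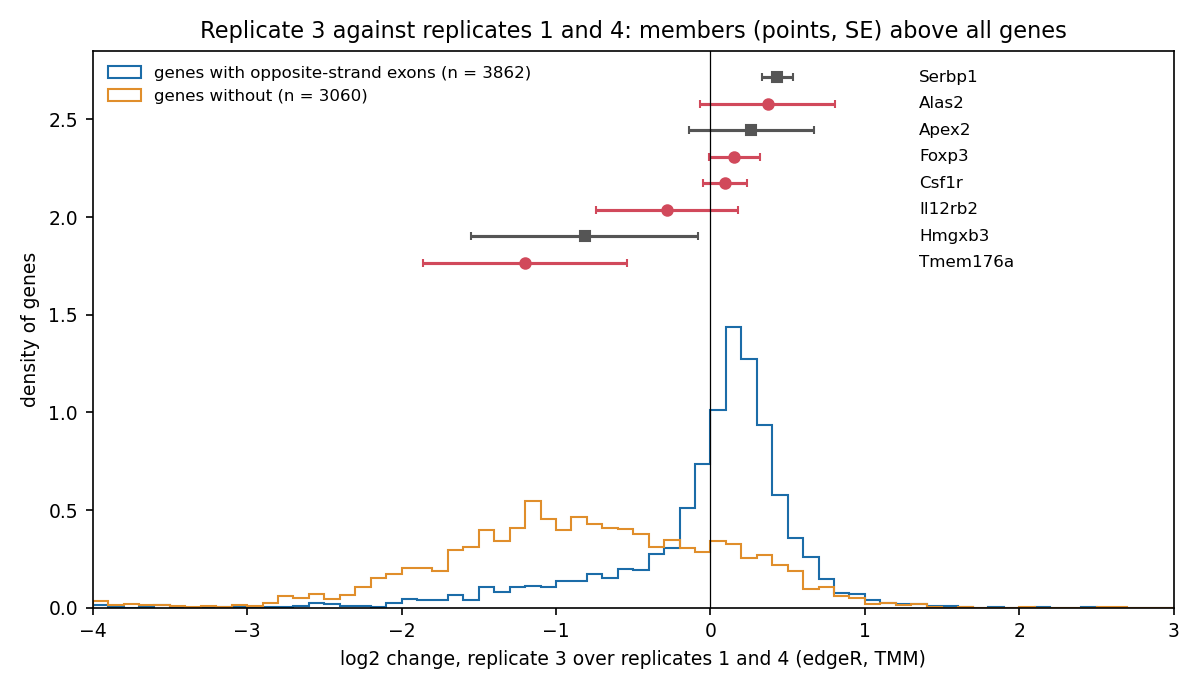
Histograms of the log2 difference of replicate 3 over replicates 1 and 4 (horizontal axis) for 3862 genes with opposite-strand exons and 3060 without, as densities, with the 8 tested genes as points with SE above them (red circles for markers, grey squares for partners; their height carries no value). The first histogram peaks just above 0 and the second is spread below it, and Foxp3, Csf1r and Serbp1 have the smallest errors.

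Few genes were called when replicate 1 or replicate 4 was the lone library. Replicate 3 was then in the pair that set edgeR's estimate of spread. Its common estimate of variation beyond counting error was 0.310 and 0.337 in these tests, against 0.141 with replicate 3 alone. The tests were thus less able to call a gene, and few calls do not show that few genes differed. In replicate 1 against replicates 3 and 4, edgeR called 2 of 6922 genes (0.0289%), with 131 at an unadjusted p under 0.05 and 2 called by DESeq2. None of the 8 tested members was called, and their log2 differences ran from −0.26 for Alas2 to 0.60 for Hmgxb3. In replicate 4 against replicates 1 and 3, edgeR called 3 genes (0.0433%), 1 of them higher (0.0144%) and 2 lower (0.0289%), with 37 at an unadjusted p under 0.05 and none called by DESeq2. Again no member was called, and the differences ran from −0.54 for Apex2 to 0.36 for Tmem176a.

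The genes most like each marker were named by the distance between log2(CPM + 1) profiles over the 3 deep libraries, among 6922 genes. For Foxp3 they were BC065403, an antisense gene, at 252, 255 and 245 CPM in replicates 1, 3 and 4, and Dcdc2b at 257, 246 and 252 CPM. For Csf1r they were 1500004A13Rik at 452, 470 and 500 CPM and Anxa11os at 446, 490 and 511 CPM. All 4 of these have opposite-strand exons. Near Alas2 stood Mrpl51, a mitochondrial ribosomal protein gene without such exons, and D230025D16Rik, which has them. Exoc8, an exocyst subunit gene, and A230083G16Rik were nearest to Il12rb2. Slc44a2, a choline transporter gene, and Gsk3b, a kinase gene, had the same counts as Tmem176a in each deep library. The nearest genes of Il12rb2 and Tmem176a have no opposite-strand exons.

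Other genes of each lineage were set beside the markers on their annotated strand. The markers were selected on their counts and all have opposite-strand exons, while 52 of the 59 lineage list genes have none. The comparison is therefore a description. Of 12 Treg markers, 8 reached 1 TPM, with a median of 7.05 TPM, and none had 0 counts. Il2ra, the alpha chain of the interleukin 2 receptor, had 773, 0, 168 and 465 counts in replicates 1 to 4, and Ctla4, an inhibitory receptor, had 109, 0, 36 and 110. Tnfrsf18 averaged 35.9 ± 4.13 TPM and Tnfrsf4 31.3 ± 18.8 TPM (SD, n = 3), both costimulatory receptors of the TNF receptor family. Activated helper T cells also express these genes. Izumo1r, a folate receptor family gene of Treg cells, had 57, 0, 58 and 56 counts, while Ikzf2 and Ikzf4, Treg transcription factors of the Ikaros family, which were chosen after their values were seen, had 6 and 2 counts in the 3 deep libraries together. Foxp3, at 91.2 TPM, was above all 12.

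Macrophage markers were nearly absent beside Csf1r. Of 12, 8 had no count in replicates 1, 3 and 4, among them Adgre1, the F4/80 antigen, and 2 reached 1 TPM. Over all 21751 nuclear protein-coding genes, 9000 had no count. Csf1r has opposite-strand exons, while 11 of the 12 list genes have none. Of protein-coding genes without such exons 4057 of 16953 reached 1 TPM, against 2717 of 4798 with them. Cd68, a lysosomal glycoprotein, had 8, 0, 6 and 6 counts in replicates 1 to 4, and Csf2ra, a receptor chain for GM-CSF, had 6, 0, 1 and 4. Lyz2, the lysozyme gene of myeloid cells, had 1 count in replicate 4 and Cx3cr1, the fractalkine receptor, 1 in replicate 1. The summed level of the 12 markers was 5.89, 3.88 and 6.49 TPM in replicates 1, 3 and 4, against 134, 136 and 152 TPM for Csf1r alone.

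Erythroid markers were at or near 0 beside Alas2. Of 11 found in the files, 8 had no count, including the globin genes Hba-a1, Hba-a2, Hbb-bs and Hbb-bt (named after their values were seen, apart from Hba-a1). Klf1, an erythroid transcription factor, had 6, 0, 2 and 1 counts in replicates 1 to 4, and Epor, the erythropoietin receptor, had 4, 0, 2 and 2. The sum over the 11 genes was 3.66, 1.69 and 1.399 TPM in replicates 1, 3 and 4. Unlike Alas2, none of the 11 has opposite-strand exons. Of the 8 other heme synthesis genes, 6 reached 1 TPM, and the list median was 1.24 TPM. Ppox, the enzyme before the last step, stood out at 124 ± 2.79 TPM with 916, 769 and 680 counts, and it has exons opposite B4galt3. Alas1, the form of the first enzyme used outside red cells, averaged 1.19 ± 0.663 TPM, against 9.69 ± 0.852 TPM for Alas2 (SD, n = 3 each).

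Among 12 further Th1 markers, 6 reached 1 TPM, with a median of 1.03 TPM. Tbx21, which encodes the T-bet factor of Th1 cells, had 5, 0, 1 and 2 counts in the 4 libraries, and Ifng, the Th1 cytokine, had none (named after its values were seen, as is Il17a). Il12rb1, the chain that pairs with Il12rb2, averaged 2.22 ± 1.06 TPM, against 5.98 ± 1.02 TPM for Il12rb2 (SD, n = 3 each). Il18r1, an interleukin 18 receptor chain, averaged 3.86 ± 0.468 TPM and Lta, lymphotoxin alpha, 11.8 ± 2.83 TPM. Of 12 Th17 and type 3 markers, 4 reached 1 TPM, with a median of 0.452 TPM. Il17a, the Th17 cytokine, had no count. Il23r, the interleukin 23 receptor, averaged 4.14 ± 1.27 TPM, against 2.76 ± 1.24 TPM for Tmem176a. The MS4A family, relatives of the TMEM176 proteins, had 3 of 6 genes at 1 TPM, led by Ms4a6c at 56.996 ± 10.2 TPM, which has exons opposite BE692007.

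Over the 5 lineage lists together, 21 of 59 genes or 35.6% reached 1 TPM and 20 had no count, against 6774 of 21751 nuclear protein-coding genes, or 31.1%, and 9000 without a count. The median was 0.214 TPM in the lists and 0.172 TPM over the protein-coding genes. The 7 lineage genes with opposite-strand exons had a median of 0.197 TPM and the 52 without a median of 0.281 TPM. Over all protein-coding genes the medians were 1.61 TPM with opposite-strand exons and 0.0501 TPM without. Of the 7 lineage genes, 3 reached 1 TPM.

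**Figure D4:**
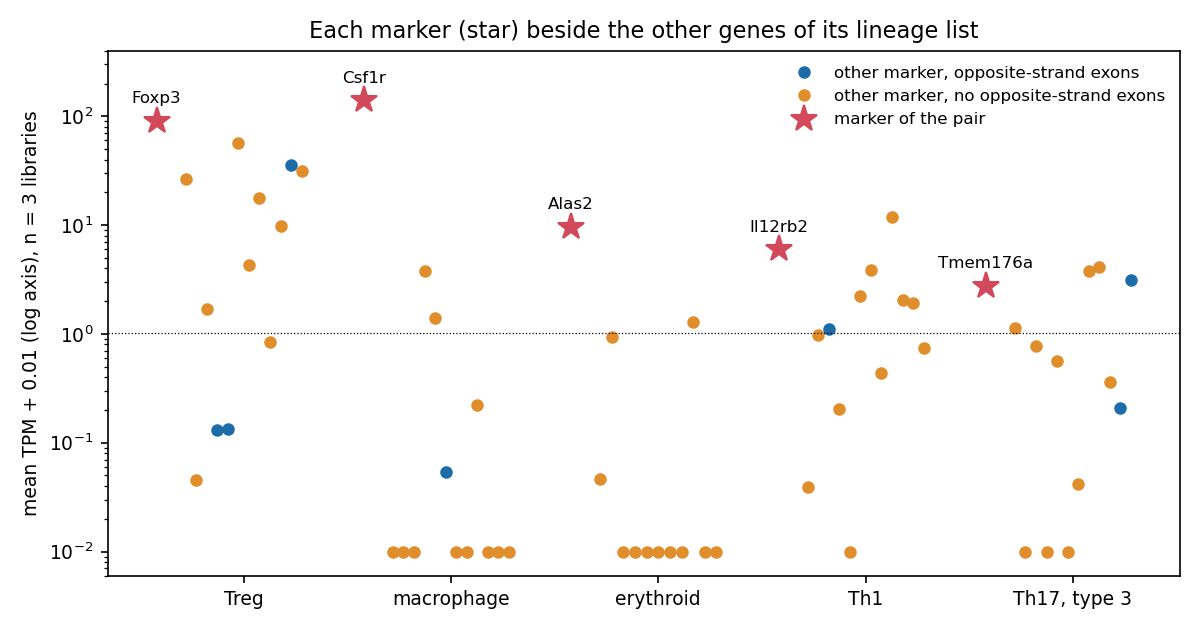
Mean TPM plus 0.01 over replicates 1, 3 and 4, on a log axis, of each of the 5 markers (star) beside the other genes of its lineage list, in blue where they have opposite-strand exons and in orange where they do not. The dotted line is 1 TPM, and the row of points at the bottom is genes with no count, 8 each in the macrophage and erythroid lists.

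The pathways of the partners were also measured on the annotated strand. Of 14 COMMD and CCC complex genes, 7 reached 1 TPM. The 4 with opposite-strand exons had a median of 32.5 TPM and the 10 without a median of 0.970 TPM. Over all protein-coding genes these medians were 1.61 and 0.0501 TPM. Commd1 averaged 35.0 ± 3.91 TPM with exons opposite Zrsr1, Vps29 49.2 ± 2.79 TPM opposite Fam216a, and Vps35l 30.0 ± 0.740 TPM opposite Knop1 and 1700016B15Rik. The 4th, Ccdc93, which sits with Ccdc22 in the complex, averaged 0.347 ± 0.190 TPM, against 0.940 ± 0.370 TPM for Ccdc22 (SD, n = 3 each). The Ccdc22 level is over its whole exonic length, most of which is shared with Gm36995. Its pooled counts were 3.79 per kb over that length and 27.7 per kb over unshared bases. Ccdc93 was named after its values were seen.

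Of 14 base excision repair genes, 9 reached 1 TPM, with a median of 5.64 TPM for the 6 with opposite-strand exons and 0.488 TPM for the 8 without. Apex1, the main AP endonuclease, averaged 61.4 ± 11.4 TPM with exons opposite Pip4p1, against 3.16 ± 0.582 TPM for its relative Apex2. Of 10 HMG-box genes, 8 reached 1 TPM, led by Hmgb2, a chromatin protein of dividing cells, at 68.1 ± 21.1 TPM and Tox4 at 48.3 ± 4.89 TPM. Among 8 genes of ribosome-associated RNA-binding proteins, 7 did so. In the HMG-box list the median was 12.5 TPM for the 4 with opposite-strand exons and 1.87 TPM for the 6 without. The ribosome-associated list had the reverse order, with 26.2 TPM for the 1 with such exons and a median of 34.6 TPM for the 7 without. Habp4, the paralogue of Serbp1, averaged 1.36 ± 0.251 TPM, against 162 ± 17.9 TPM for Serbp1, and Eef2, the elongation factor that Serbp1 holds on idle ribosomes, averaged 132 ± 58.5 TPM.

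In replicate 3, 21 of 59 tested genes of these lists were called, all lower than in replicates 1 and 4, where 12.4% of all genes tested were lower. That share differed by class, with 672 of 3060 genes lower without opposite-strand exons and 186 of 3862 with them. The lists were not matched to these classes. The calls in the lists depended on the scaling and the tool. Factors from genes without opposite-strand exons gave 7 lower and 12 higher genes, RLE factors 12 lower and DESeq2 4 lower. With the first of these no T cell gene was called, 1 of 7 Th2 genes was lower and 1 higher, and 2 of 8 Treg genes were lower and 3 higher. With factors from all genes, 3 of 8 tested Treg genes were lower, namely Il2ra (log2 difference −1.64), Ctla4 (−1.41) and Tnfrsf4 (−1.96). Of the Th2 list, 4 of 7 were lower, namely Il13 (−2.08), Gata3 (−1.42), Ccr4 (−1.11) and Ccr8 (−2.36). Of the T cell list 6 of 8 were lower, of the ribosome-associated list 5 of 6, of the HMG-box list 2 of 7 (Hmgb1 at −1.94 and Ssrp1 at −1.45) and of the Th1 list 1 of 5 (Stat4 at −2.61). The Th17, heme, COMMD, repair and MS4A lists had no called gene among 3, 2, 4, 7 and 2 tested, and no macrophage or erythroid list gene reached the filter. The summed level of the 8 T cell markers was 47.1 TPM in replicate 3, against 134 and 146 TPM in replicates 1 and 4, and its part in the results of replicate 3 was not tested.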

How the data were processed

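Fragments per gene were deposited by the authors as raw counts, 1 table per library. Per the file headers reads were aligned to mm10 with STAR and counted over GENCODE vM13 exons by featureCounts 1.4.6-p4, which took pairs with both ends mapped at strand setting 1. The aligner's version, and which strand of the RNA read 1 copied, are not given in the sources used here. Symbols, biotypes and coding bases came from GENCODE vM21 by identifier (224 of 50600 had none). Promoter windows came from RefSeq (GRCm38.p6), where 7 of the 10 genes had one.

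The 10 genes, the gene lists and the tests were chosen with earlier results of these data known. Overlaps were found with bedtools 2.31.1. Ratios of counts per exonic base were pooled over replicates 1, 3 and 4 with exact 95% binomial intervals. The counts carry no molecular identifiers to tell copies apart, so these intervals and the floors take in counting error alone. Each of these libraries was tested against the other 2 with edgeR 4.0.16 in R 4.3.3 (quasi-likelihood, TMM, mean count of 10 or more, 1 residual degree of freedom, Benjamini-Hochberg at 0.05), with DESeq2 1.42.0, other scalings, no filter, replicate 2 and left-out libraries as alternatives. The edgeR step was tested on simulated counts. Other values used scipy 1.17.1, numpy 2.4.6 and pandas 2.3.3 in Python 3.11.15. The text names the 10 genes, per list the lead gene, up to 4 genes by mean TPM and any called gene, and per marker the 2 nearest genes. Some list genes are not reported here. Others are said to be chosen after their values were seen.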

Additional observations from a re-analysis of the deposited data

Results flagged for a closer look

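Replicate 2, with 5016 counts in all, stood far from the other libraries. Its Foxp3 level was 199 CPM from 1 count, against 253 to 257 CPM in the others, a gap of 0.936 of the range of the 4 values. Its Alas2 level was 0 CPM, against 15.1 to 18.1 CPM, a gap of 0.831, but at the pooled rate of the others only 0.0815 Alas2 counts would have fallen there, so a value of 0 was set by the depth. The limit for 4 samples is passed by chance in about 1 of 20 groups. The 10 genes had 5 counts there, namely 2 of Csf1r, 2 of Serbp1 and 1 of Foxp3. At the pooled rate of the other libraries Csf1r would have had 2.39, Foxp3 1.28 and Serbp1 11.5, and the exact Poisson 95% interval around the 2 Serbp1 counts was 0.242 to 7.22.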

How the results depend on the processing

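No paired analysis was possible because the 4 libraries form a single group. Of the alternative values of the main results, 65 stayed in place, 18 moved and 1 reversed. The log2 density ratio of Foxp3 over Ccdc22 (6.67) became 9.15 with the marker taken over the overlap and the partner outside it, and 3.90 with exons unshared on the same strand, an alternative added after the data were seen. In the overlap setting Csf1r over Hmgxb3 (6.60) became 8.82, Alas2 over Apex2 (1.58) 4.48, Il12rb2 over Serbp1 (−4.76) −3.55 and Tmem176a over Tmem176b (0.81) 6.31, which its construction sets. Raw counts gave −0.28 for Alas2, a reversal set by the longer Apex2, and −7.17 for Il12rb2. Averaged per library, counts per overlap kb fell with replicate 2 added, to 651 for Foxp3 (868 without it), 827 for Csf1r (1102) and 78.8 for Alas2 (105), and Alas2 had 87.8 over its overlap with any gene. With 100 counts as the minimum, 72.6% of pairs differed 10-fold, against 75.1%. In replicate 3 the called genes, 1051, became 591 with RLE factors (212 higher, 379 lower), 2672 with factors from genes without opposite-strand exons and 56 with DESeq2. No filter gave 229 higher and 560 lower, and replicate 2 added gave 60 and 800, against 193 and 858. In replicate 1 no filter left 1 called gene of 2, and in replicate 4 those factors and DESeq2 each left 0 of 3. Il12rb2 turned to 0.42 with those factors and Csf1r lay between −0.030 without replicate 1 and 0.23 without replicate 4. The causes were not tested. Leaving a library out of these tests gives fold changes only, since 1 library against 1 leaves no residual degrees of freedom. Low counts of Ccdc22, Tmem176a and Tmem176b limit their ratios.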
